A study of Mus musculus with 14 samples.

Results

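The nuclear-encoded subunits of oxidative phosphorylation were measured in tumours grown from B16-F10, an established mouse melanoma cell line. Members were chosen by gene symbol: names of the Nduf, Sdh, Uqcr, Cox and Atp5 subunit series that had a probe set with exactly 1 gene symbol on both array designs, without the Ndufaf assembly factors. Each gene was represented by its probe set of highest mean and had to lie above the lowest 25% of genes by mean level. This gave 73 of the 16635 genes tested: 33 of complex I, 4 of complex II, 7 of complex III, 12 of complex IV and 17 of complex V. The symbols matched 75 genes on both designs, and Cox7b2 (mean log2 level 3.64) and Cox8c (4.28), testis isoforms, lay below the level limit of 4.94. Cox7c and the pseudogenes Atp5c1-ps and Uqcrh-ps1 had such a probe set on the first design only, and Cox6c, Ndufb2, Ndufs6 and Uqcr10 on the second design only.

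The respiratory chain lies in the inner mitochondrial membrane. Complex I (NADH dehydrogenase) and complex II (succinate dehydrogenase) pass electrons to ubiquinone, complex III (the cytochrome bc1 complex) passes them to cytochrome c, and complex IV (cytochrome c oxidase) passes them to oxygen. Protons pumped by complexes I, III and IV drive complex V, the ATP synthase. Mitochondrial DNA encodes a small core of subunits of complexes I, III, IV and V; all others, and the whole of complex II, are nuclear genes. Melanoma cells make ATP by both glycolysis and oxidative phosphorylation, and PGC-1α (Ppargc1a), which MITF controls in melanocytic cells, is a known activator of many of these subunit genes.

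The study placed B16-F10 tumours on both flanks of C57BL/6 mice, irradiated the right one with 20 Gy on day 8 and gave the CTLA4-blocking antibody 9H10 on days 5, 8 and 11. Sublines Res 499 and Res 177 were derived from unirradiated tumours that had resisted this treatment or come back after it, and were implanted again beside control, the sensitive line. The first array design held 4 control, 7 Res 499 and 1 Res 177 tumours, and the second held 1 control and 1 Res 177 tumour. Each Res name is 1 subline, so what is particular to that subline and what goes with resistance cannot be told apart. The labels give neither the mouse of each tumour nor whether the profiled tumours were themselves treated; p-values therefore measure the spread between these tumours, part of which may be technical. Values are log2 levels of total RNA from whole tumours, in which fewer cells of a type and less RNA per cell cannot be told apart.

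Arrays of the first design correlated at 0.977 to 0.993 and had medians of 5.70 to 5.80. Markers of melanocytes were present in every tumour of that design: all 10 were above the level limit, and Pmel and Dct never lay below the 99.8th and 99.9th percentile of genes. Macrophage markers (16 genes) had a mean of -0.15 to 0.31 relative to the control mean in control tumours, -0.34 to 1.73 in Res 499 tumours and 0.97 in the Res 177 tumour. Adipocyte markers (8 of 9 above the level limit) ran from -0.16 to 0.29 in control tumours and from -0.19 to 0.17 in 6 Res 499 tumours, and reached 1.51 in Res 499 replicate 5.

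Promoter windows (250 bases before to 50 after the gene start, RefSeq, build GRCm38.p6) were found by symbol for 62 of the 73 members. They are shown for 4 of them that are described below, none of which had a change past the limma threshold in Res 499. All 4 are on the minus strand and written 5′ to 3′ on the gene's own strand. Ndufc1 was the 1 member whose Res 499 and control tumours did not overlap (1.37%, against 2.39% of all genes). Uqcr11 had the largest change in complex III. Cox8a and Cox8b are the ubiquitous and the muscle-type isoform of the same complex IV subunit. Capitals mark exact matches, on either strand, to 5 motifs. The letters CGCATGCGC are a core of the site of NRF1, a factor known for driving respiratory chain genes. The letters CCGGAAG are a core site of the ETS family, among them GABPA, which is also called NRF2. The letters AAGATGGC are a core site of YY1, often found at gene starts. An E-box of the form CAGCTG, which muscle regulators of the MyoD family bind, and the TATA box, searched as TATAAA, complete the set.
Ndufc1, chr3:51408906-51409205: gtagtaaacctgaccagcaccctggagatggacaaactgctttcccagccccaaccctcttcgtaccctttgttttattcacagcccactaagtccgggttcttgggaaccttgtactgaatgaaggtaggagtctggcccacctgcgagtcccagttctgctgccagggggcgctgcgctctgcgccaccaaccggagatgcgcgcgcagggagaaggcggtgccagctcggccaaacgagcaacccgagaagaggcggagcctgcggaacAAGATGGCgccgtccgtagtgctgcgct
Uqcr11, chr10:80406772-80407071: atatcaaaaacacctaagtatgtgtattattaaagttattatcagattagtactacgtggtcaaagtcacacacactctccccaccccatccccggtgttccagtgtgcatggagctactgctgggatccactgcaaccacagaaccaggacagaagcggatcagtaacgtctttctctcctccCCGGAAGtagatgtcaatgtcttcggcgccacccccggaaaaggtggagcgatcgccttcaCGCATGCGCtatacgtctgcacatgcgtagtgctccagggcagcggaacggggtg
Cox8a, chr19:7217567-7217866: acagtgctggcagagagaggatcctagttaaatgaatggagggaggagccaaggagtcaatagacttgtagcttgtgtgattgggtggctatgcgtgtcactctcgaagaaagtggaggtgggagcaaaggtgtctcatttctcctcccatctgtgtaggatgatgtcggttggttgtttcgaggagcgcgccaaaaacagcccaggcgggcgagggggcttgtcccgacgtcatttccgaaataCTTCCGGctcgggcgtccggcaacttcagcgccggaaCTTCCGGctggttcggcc
Cox8b, chr7:140900397-140900696: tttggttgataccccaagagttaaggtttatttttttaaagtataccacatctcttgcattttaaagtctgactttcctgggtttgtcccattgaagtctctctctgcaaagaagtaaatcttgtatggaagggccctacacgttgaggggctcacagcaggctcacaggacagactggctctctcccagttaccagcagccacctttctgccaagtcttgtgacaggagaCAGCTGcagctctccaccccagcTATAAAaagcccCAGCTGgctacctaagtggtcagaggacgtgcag
The Ndufc1 window holds a YY1 match after the gene start. Uqcr11 holds an ETS match before the gene start and an NRF1 match across it. Cox8a holds 2 ETS matches in the reverse orientation, the first across the gene start and the other after it. Cox8b holds none of these 3 motifs. It has 2 E-box matches, the first before the gene start and the other after it, and a TATA match that also lies after the gene start.

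Among the 62 member windows, 12.9% (8) held the NRF1 letters, against 1.95% of all 27025 genes with a window. ETS letters were in 27.4% of member windows (17) against 9.93% of all, and YY1 letters in 14.5% (9) against 3.19%. E-box letters were in 9.68% of member windows (6) against 18.3%, and TATA letters in 11.3% (7) against 15.7%. No motif of the 5 contains another. The 2 sets are unlike: members had to lie above the level limit, while the background holds every gene with a window at whatever level. The part of expression level in these shares was not tested. A match describes the sequence and is not a measured binding site.

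Res 499 against control asks how tumours of a subline that escaped radiation with CTLA4 blockade differ from tumours of the sensitive line. Most subunits had a slightly greater mean in Res 499, but no single subunit passed the test against the spread between tumours. The change was positive for 63 of 73 members (86.3%), against a background of 51.7% of all genes tested. Its median was 0.085 on the log2 scale (1.06-fold), against 0.0053 over all genes and -0.0056 over the genes in the top 25% by mean level. Changes ran from -0.30 (Cox8b) to 0.38 (Ndufa11), and the median standard error of a single change was 0.097, more than the median change itself. In limma's moderated test with Benjamini-Hochberg adjustment over all genes, 0 of 73 members passed an adjusted p of 0.05, against 0.355% of all genes (59). The smallest adjusted p of a member was 0.110 (limma).

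At an unadjusted p under 0.05 in limma there were 11 members (15.1%), against 13% of all genes. Split by direction, 10 members were above control (13.7%, against 6.68% of all genes) and 1 was below it (1.37%, against 6.29%). The 10 were Ndufc1, Ndufa12, Ndufb7, Ndufa4l2, Sdhc, Sdhb, Uqcr11, Cox8a, Atp5o and Atp5g3. The 1 was Cox8b, which had the lowest mean level of all members. Group ranges did not overlap for 1 member (1.37%), against 2.39% of all genes (1.23% above control and 1.15% below).

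A single tumour carried much of the shift. Res 499 replicate 5 had the highest level of all 12 tumours for 47 of 73 members (64.4%), while it was the highest for 16.9% of all genes, and it was the lowest for 0 members against 16% of all genes. At the other end, control replicate 5 was the lowest tumour for 28 members (38.4%, against 10.1% of all genes) and control replicate 4 for 13 (17.8%, against 6.44%). Averaged over the 73 members and relative to the control mean, the control tumours stood at 0.073 (replicate 2), 0.066 (replicate 3), -0.064 (replicate 4) and -0.075 (replicate 5). The Res 499 tumours stood at 0.021, -0.034, 0.084, 0.10, 0.30, 0.053 and 0.15 for replicates 1 to 7, and the Res 177 tumour at 0.039. Res 499 replicates 1, 2 and 6 thus lay within the range of the control tumours. Counted by gene, 41, 35, 51, 55, 70, 48 and 64 of the 73 members were above the control mean in Res 499 replicates 1 to 7, against 51, 55, 22 and 23 in control replicates 2 to 5.

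Without Res 499 replicate 5 the median change was 0.046 and 56 members were positive; without control replicate 5 they were 0.063 and 55, and without control replicate 4 they were 0.079 and 56. Replicate 5 was also the Res 499 tumour with the high adipocyte markers: Fabp4 was 12.00 there against 8.64 to 10.56 in the other Res 499 tumours, Cidec 8.08 against 5.63 to 5.83 and Retn 8.16 against 5.23 to 5.98, while Ucp1, the brown fat uncoupling protein, was 4.97 against 4.86 to 5.13, near the level limit. With the adipocyte marker mean as a covariate, chosen after seeing the data, the median change was 0.054 and 59 members were positive. Relative to the control mean, that marker mean was 1.51 in Res 499 replicate 5 and at most 0.29 in every other tumour. The covariate thus mostly marks that tumour, and the fit cannot tell adipose tissue from its other features. Whether adipose tissue raised the subunit levels was not tested. With leukocyte markers as a covariate the median change was 0.099 and 60 members were positive.

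**Figure D1:**
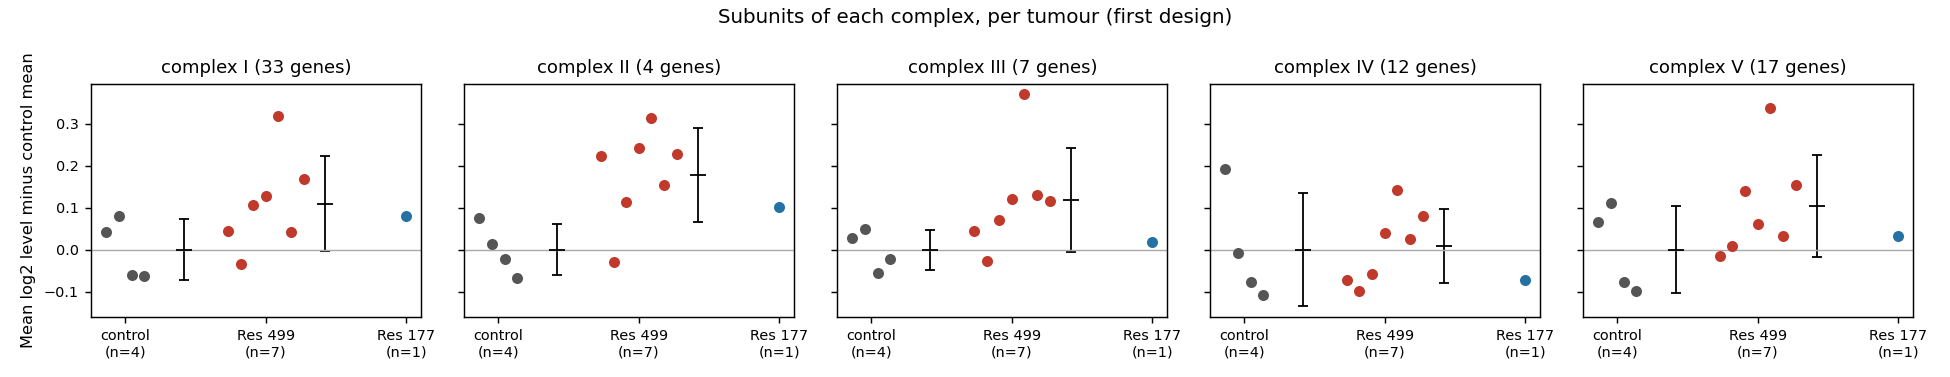
Mean log2 level of the subunits of each complex minus the control mean (y axis), 1 point per tumour of the first design, for control (n = 4), Res 499 (n = 7) and Res 177 (n = 1); the bars beside the points give the group mean and SD. Res 499 replicate 5 is the highest point in complexes I, II, III and V, at 0.32, 0.31, 0.37 and 0.34, and control replicate 2 is the highest in complex IV at 0.19.

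Complex I, by far the largest complex, had 30 of 33 members with a positive change and a median of 0.085, which was 0.046 without Res 499 replicate 5. Ndufc1, a small membrane-arm accessory subunit, gave levels of 8.16, 8.36, 7.96 and 8.15 in control replicates 2 to 5 and a lowest, median and highest level of 8.38, 8.44 and 8.70 in Res 499. All 7 Res 499 tumours were above all 4 control tumours, the lowest by a narrow margin. The change was 0.38 (SE 0.095, 1.30-fold; 8.16 ± 0.16, SD, n = 4, to 8.53 ± 0.15, SD, n = 7), with a limma p of 0.0017 and an adjusted p of 0.110. It passed the threshold under 1 alternative, with arrays weighted by quality (limma adjusted p 0.041).

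Ndufa12, an accessory subunit beside the matrix arm, measured 9.45, 9.19, 9.12 and 9.04 in control replicates 2 to 5, and 9.18, 9.49 and 9.85 as lowest, median and highest in Res 499. Control replicates 2 and 3 overlapped Res 499, of which 5 of 7 tumours were above all controls (change 0.32, SE 0.117, limma adjusted p 0.260). Ndufa11, a membrane-arm subunit, had the largest change of all members, 0.38, but with an SE of 0.20 and a limma adjusted p of 0.448. Its control replicate 5 (11.29) lay above 5 of the 7 Res 499 tumours, whose levels ran from 10.58 to 11.73. Dimmer second probe sets gave smaller changes, 0.14 for Ndufa11 (mean level 6.36) and 0.092 for Ndufa12 (mean level 6.16).

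Ndufa4l2 is a paralogue of Ndufa4 that hypoxia induces; Ndufa4 itself is now counted as a subunit of complex IV, so both stand under complex I by name only. It had a change of 0.25 (SE 0.10, limma adjusted p 0.326), with 5.98, 5.74, 6.27 and 5.99 in the control tumours and 6.09 to 6.47 in Res 499. The other 29 complex I members had changes between -0.14 (Ndufv3, a flavoprotein-module subunit) and 0.24 (Ndufa2), 26 of them positive, and the smallest limma adjusted p among them was 0.286 (Ndufb7).

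Complex II had the greatest median, 0.19, over only 4 genes. Sdhc, one of the membrane anchors, measured 9.94, 9.51, 9.82 and 9.90 in control replicates 2 to 5 and 9.87, 10.15 and 10.46 as lowest, median and highest in Res 499 (change 0.36, SE 0.127, limma adjusted p 0.248). Res 499 replicates 2 and 3 overlapped the controls and the other 5 were above them. Sdhb, the iron-sulphur subunit, measured 11.17, 11.17, 11.00 and 11.20 in the control tumours and 11.13 to 11.53 in Res 499, of which 6 of 7 were above all controls (0.20, SE 0.080, limma adjusted p 0.323). The second anchor Sdhd had a change of 0.18 (limma adjusted p 0.486). Sdha, the flavoprotein that holds the catalytic site, had a change of -0.02 (SE 0.095, limma adjusted p 0.955), and its sign turned when any of 4 single tumours was left out.

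Complex III had 7 of 7 members with a positive change and a median of 0.12, which was 0.071 without Res 499 replicate 5 and 0.077 without control replicate 5. Uqcr11, its smallest subunit, measured 8.52, 8.82, 8.49 and 8.86 in control replicates 2 to 5 and 8.68, 8.97 and 9.17 as lowest, median and highest in Res 499. Res 499 replicates 2 and 7 overlapped the controls and 5 tumours were above them (0.30, SE 0.108, limma adjusted p 0.257). Uqcrc2, a core protein, had a change of 0.12 (SE 0.061, adjusted p 0.425) and Uqcrb 0.13 (SE 0.095, adjusted p 0.617), both by limma. Uqcrh, the hinge protein, had a change of 0.12 that was 0.071 without Res 499 replicate 5. The other 3 members lay between 0.0099 (Uqcrq) and 0.080 (Uqcrfs1, the Rieske iron-sulphur protein).

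Complex V had 15 of 17 members with a positive change and a median of 0.085, which was 0.042 without Res 499 replicate 5 and 0.034 without control replicate 5. Atp5o, the stalk subunit that joins the catalytic head to the membrane part (oligomycin sensitivity-conferring protein), measured 7.34, 7.57, 7.42 and 7.85 in control replicates 2 to 5 and 7.63, 7.91 and 8.26 as lowest, median and highest in Res 499. Its groups overlapped through control replicate 5 (0.34, SE 0.127, limma adjusted p 0.269). Atp5g3, a gene of the proton-carrying c ring, had a change of 0.18 (SE 0.076, limma adjusted p 0.352) with 5 of 7 Res 499 tumours above all controls. The membrane-part subunits Atp5j2 and Atp5l had changes of 0.23 and 0.20 (limma adjusted p 0.528 and 0.637). The other 13 lay between -0.036 (Atp5md) and 0.17 (Atp5h), with 11 positive.

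Complex IV had 8 of 12 members with a positive change and a median of 0.025, which was -0.010 without Res 499 replicate 5, 0.0027 without control replicate 3 and 0.084 without control replicate 2. Without Res 499 replicate 1, 2 or 3 it was 0.048, 0.041 or 0.039. Several of its subunits exist as a ubiquitous form and as a form that heart and skeletal muscle (and for Cox7a1 and Cox8b also brown fat) use. The ubiquitous Cox8a measured 12.55, 12.56, 12.38 and 12.50 in control replicates 2 to 5 and 12.55, 12.64 and 12.75 as lowest, median and highest in Res 499 (0.14, SE 0.065, limma adjusted p 0.385). Its muscle-type counterpart Cox8b measured 6.09, 5.57, 5.48 and 5.24 in the control tumours, 5.06, 5.32 and 5.41 in Res 499 and 5.10 in the Res 177 tumour. All 7 Res 499 tumours were below 3 of the 4 control tumours and overlapped control replicate 5. Cox8b had the lowest mean level of the 73 members over the tumours of the first design, 5.38, near the level limit of 4.94. How far so dim a signal reflects the Cox8b transcript was not tested.

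The Cox8b change was -0.30 (SE 0.13, limma adjusted p 0.353), and -0.14 without control replicate 2. Ubiquitous Cox7a2 had a change of 0.17 (SE 0.107, limma adjusted p 0.558), while muscle-type Cox7a1 had -0.17 (SE 0.25, limma adjusted p 0.832), which was 0.061 without control replicate 2. Its control levels spread more than those of any other named subunit, 7.78, 7.24, 7.11 and 6.22, and spanned all Res 499 tumours (6.46 to 7.32). The pair Cox6a1 (ubiquitous, 0.12, SE 0.056, limma adjusted p 0.400) and Cox6a2 (muscle, -0.035, limma adjusted p 0.937) had levels of 5.97 to 6.45 for Cox6a2 in Res 499, inside its control range of 5.81 to 6.50. Cox6b2, a testis isoform, had a change of 0.068 (limma adjusted p 0.848). The other 6 members lay between -0.029 (Cox7b) and 0.12 (Cox6a1), with 5 positive.

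Control replicate 2, the tumour with the highest Cox8b and Cox7a1, also had the highest mean of skeletal muscle markers, 0.29, against -0.18 to -0.0052 in the other control tumours and -0.23 to 0.076 in Res 499 (14 of 16 markers above the level limit). Acta1, skeletal muscle actin, was 7.95 there and 6.24 to 7.33 in the other 11 tumours; Ckm, muscle creatine kinase, was 5.92 there and 5.59 to 6.11 elsewhere. With skeletal muscle markers as a covariate the Cox8b change was -0.21 and the Cox7a1 change -0.059. Among the control tumours replicate 2 also had the highest mean of adipocyte (0.29), fibroblast (0.38), macrophage (0.31) and endothelial markers (0.23), and its Fabp4 was 11.03 against 8.59 to 9.48 in the other controls. The part of these other tissues in the Cox8b and Cox7a1 values was not tested.

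**Figure D2:**
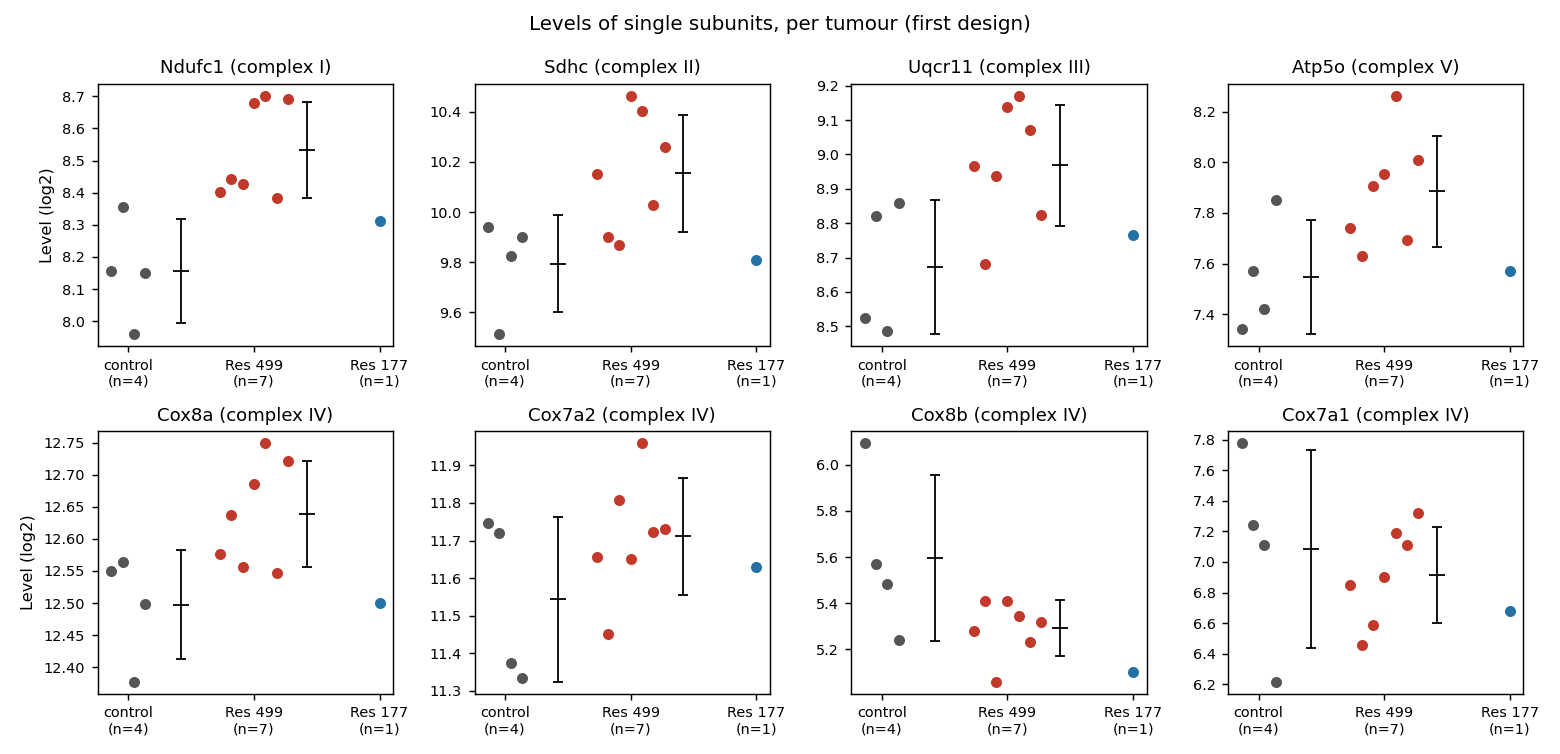
Log2 levels (y axis, a separate scale in each panel) of 8 subunits in each tumour of the first design, with the mean and SD of control (n = 4) and Res 499 (n = 7) as bars and the 1 Res 177 tumour at the right. Ndufc1 is the 1 panel in which Res 499 and control do not overlap, and control replicate 2 is the highest point for Cox8b (6.09) and Cox7a1 (7.78).

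Of subunits whose symbols fall outside the naming rule, Cox4i1, the main form of a regulatory subunit of complex IV, measured 10.64, 10.59, 10.66 and 10.75 in control replicates 2 to 5 and 10.42, 10.83 and 11.01 as lowest, median and highest in Res 499. In Res 499, 6 of 7 tumours were above all controls and replicate 2 was below all of them (0.18, SE 0.102, limma adjusted p 0.500). Its lung and hypoxia form Cox4i2 had a change of 0.20 (limma adjusted p 0.464). Cyc1, the cytochrome c1 of complex III, had a change of 0.24 (SE 0.076, limma p 0.0076, adjusted p 0.198) with 6 of 7 Res 499 tumours above all controls; it and Ppargc1a, Aldoc and Hk1 below are named after their values were seen.

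The subunits encoded by mitochondrial DNA did not share the positive sign. Of 13 such genes 10 were tested, and 9 had a negative and 1 a positive change, with a median of -0.037 and a smallest limma adjusted p of 0.784. Their changes ran from -0.066 (ND2, a complex I core subunit) to 0.028 (ND6), each smaller than its standard error. The median was -0.0022 without control replicate 2, -0.010 and -0.023 without Res 499 replicates 1 and 3, -0.069 without Res 499 replicate 6 and -0.072 without control replicate 3. Relative to the control mean, they averaged -0.096 to 0.11 in control tumours and -0.26 to 0.21 in Res 499 tumours. Apart from ND6 (7.81), their mean levels in control tumours were 13.16 to 13.83, about as high as Dct (13.49 to 13.80 over the tumours). Whether the arrays can show a small change at such levels was not tested.

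Other nuclear genes that serve the same organelle were taken from lists. Mitochondrial ribosomal proteins, which translate the mitochondrial mRNAs, had 60 of 71 positive changes and a median of 0.11 (0.054 without Res 499 replicate 5). Assembly factors of the complexes had 30 of 45 positive and a median of 0.076 (0.046 without that tumour and 0.117 without control replicate 3). Genes of pyruvate dehydrogenase and the citric acid cycle had 15 of 17 positive and a median of 0.069 (0.026 without control replicate 5). Biogenesis and DNA maintenance genes had 11 of 19 positive and a median of 0.0034, which had no stable sign: it was -0.014 with each array centred, and with 1 tumour left out it ran from -0.020 (control replicate 5) to 0.014 (control replicate 3), below 0 also without control replicate 2 or 4 or Res 499 replicate 1, 2, 3 or 7. In all 4 lists 0 genes passed the threshold in limma, with 7, 7, 2 and 2 at an unadjusted p under 0.05 in that order, or 9.86%, 15.6%, 11.8% and 10.5%, near the 13% of all genes.

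Glycolysis had the opposite sign: 12 of 15 genes were negative, with a median of -0.058 and 0 genes past the threshold in limma (4, or 26.7%, at an unadjusted p under 0.05, against 13% of all genes). Aldoc, an aldolase, had a change of -0.49 (SE 0.158, limma adjusted p 0.208) and Hk1, a hexokinase, -0.25 (SE 0.093, limma adjusted p 0.275). The median was -0.029 and -0.027 without Res 499 replicates 2 and 3, -0.035 without Res 499 replicate 1, -0.039 without control replicate 4, -0.088 without control replicate 2 and -0.103 without Res 499 replicate 6. With leukocyte markers as a covariate it was 0.0078.

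Ppargc1a, the coactivator of mitochondrial biogenesis, measured 11.39, 11.51, 11.38 and 11.20 in control replicates 2 to 5 and 11.88, 12.68, 11.60, 11.77, 11.43, 12.04 and 11.98 in Res 499 replicates 1 to 7. In Res 499, 6 of 7 tumours were above all controls (0.54, SE 0.184, limma p 0.0118, adjusted p 0.229). The exception was replicate 5, the tumour with the highest subunit levels, and replicate 2, which had the highest Ppargc1a level, had the lowest mean of the subunits among the Res 499 tumours.

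**Figure D3:**
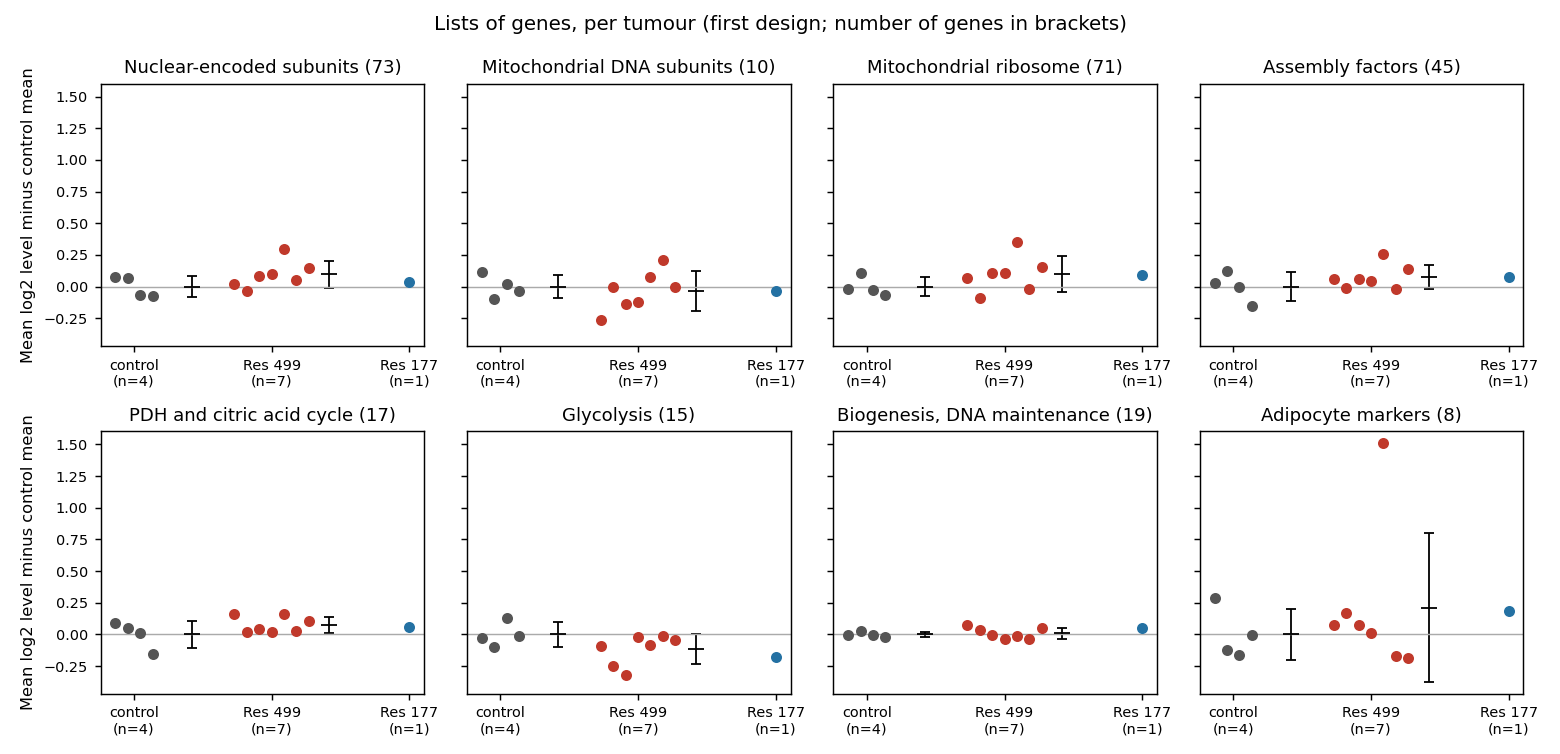
Mean log2 level of 8 gene lists minus the control mean (y axis, the same scale in each panel), 1 point per tumour of the first design, with group mean and SD as bars for control (n = 4) and Res 499 (n = 7) and the 1 Res 177 tumour at the right. The nuclear-encoded subunits of 1 Res 499 tumour stand at 0.30, and the same tumour stands at 1.51 for adipocyte markers.

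Res 177, the other resistant subline, was compared with control through 1 tumour on the first design, which the model assumes to vary like the other groups. It shares the 4 control tumours with the comparison of Res 499. The change was positive for 53 of 73 members (72.6%, background 53.3%), with a median of 0.037 against 0.012 over all genes. By limma 0 members passed the threshold (0.21% of all genes did), and 0 had an unadjusted p under 0.05, against 4.08% of all genes. Ndufb11 and Ndufs8, a membrane-arm and a matrix-arm subunit of complex I, had changes of 0.30 each (SE 0.172 and 0.195), and Atp5j2 0.28 (SE 0.249). The Ndufb11 probe set was dim on this design, at 6.57 in the Res 177 tumour and 6.10 to 6.54 in control tumours. Ndufs8 measured 11.34 in the Res 177 tumour. At the negative end were Cox8b at -0.49 (SE 0.235, limma p 0.056), Cox7a1 at -0.40 (SE 0.440) and Ndufv3 at -0.30 (SE 0.225). Without control replicate 2 the Cox8b and Cox7a1 changes were -0.33 and -0.17.

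Res 499 and Res 177 were also set against each other. By limma 0 members passed the threshold (0.234% of all genes did) and 0 had an unadjusted p under 0.05 (2.93% of all genes); 52 of 73 were higher in Res 499 (71.2%, background 47.5%), with a median difference of 0.048. With both sublines joined as resistant (8 tumours) against sensitive (4 tumours), 63 of 73 members were positive (background 52.4%) with a median of 0.082. There too 0 members passed the threshold in limma (0.613% of all genes did), and 9 had an unadjusted p under 0.05 (12.3%, against 13.4% of all genes). This comparison shares its 4 control and 7 Res 499 tumours with that of Res 499, so it adds 1 tumour.

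The second design gave 1 Res 177 tumour against 1 control tumour, with no test. There 43 of 73 members were higher in Res 177 (58.9%), the same share as among all 15034 genes with a value on both designs (58.9%), and the median difference was 0.031 against 0.036 for all genes. With each array centred on its median, 26 members were higher (35.6%, against 38.9%) and the median turned to -0.053, against -0.048 for all genes. Differences over 0.3 were seen for 4 members above control (5.48%, against 12.1% of all genes) and 2 below it (2.74%, against 6.57%). Those above were Ndufb3 (9.20 against 8.38, a difference of 0.82), Ndufa2 (0.42), Ndufb7 (0.41) and Ndufc1 (0.38). All 4 are of complex I, where they make up 12.1% of 33 members, the same share as among all genes (12.1%). With each array centred, chosen after seeing the data, there were 3 above (4.11%, against 7.98% of all genes) and 5 below (6.85%, against 10.4%): Ndufc1 was at 0.295, and Uqcr11 (-0.37), Uqcrb (-0.32) and Cox6a1 (-0.30) joined those below. Ndufb3 had a difference of -0.059 on the first design.

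On the deposited scale both members below were the muscle-type isoforms of complex IV. Cox8b measured 6.42 in the Res 177 tumour and 8.04 in the control tumour, a difference of -1.61 (0.327-fold), and Cox7a1 measured 8.16 and 9.33, a difference of -1.17 (0.445-fold). The next lowest difference was that of Uqcr11, -0.28 (-0.33 with all its probe sets averaged). With each array centred the Cox8b and Cox7a1 differences were -1.70 and -1.25. Among skeletal muscle markers 15 of 16 were higher in that Res 177 tumour on the deposited scale, against 58.9% of all genes. Their median difference was 0.097, against 0.036 for all genes, and Acta1 measured 8.32 against 7.32. Centring moved the median of all genes from 0.036 to -0.048. Several marker differences, such as those of Mylpf (0.063) and Mb (0.061), were smaller than that shift. Among adipocyte markers Fabp4 differed by -0.91, Retn by -0.60 and Lipe by -0.33, while Ucp1 differed by -0.031 and Plin1 by 0.13. The median over these 8 genes was -0.20, with 6 negative and 1 positive. Other marker lists differed more in this pair, with medians of 1.04 (keratinocyte), 0.89 (macrophage) and 0.84 (leukocyte covariate). The part of muscle, adipose or other tissue in the Cox8b and Cox7a1 values of this design was not tested.

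The tumours of the 2 designs are separate samples. Of the 73 members, 32 were higher in Res 177 on both, 9 were lower on both and 32 differed in sign, so that 56.2% had the same sign, against 61.1% of all genes. With the arrays of both designs centred these counts were 12, 19 and 42, and 42.5% had the same sign, against 63.6% of all genes. The centring was unlike: the first design used the median of genes above the level limit, the second that of all its genes. This left the median second-design difference of all genes compared at -0.048, and such a shift can turn the sign of small differences. Its part in these counts was not tested. Cox8b and Cox7a1 had the 2 most negative values on either design. On the first design this order rested on control replicate 2. Without that tumour the changes were -0.34 for Ndufv3, -0.33 for Cox8b and -0.17 for Cox7a1. With any 1 tumour left out that of Ndufv3 was -0.34 to -0.25.

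**Figure D4:**
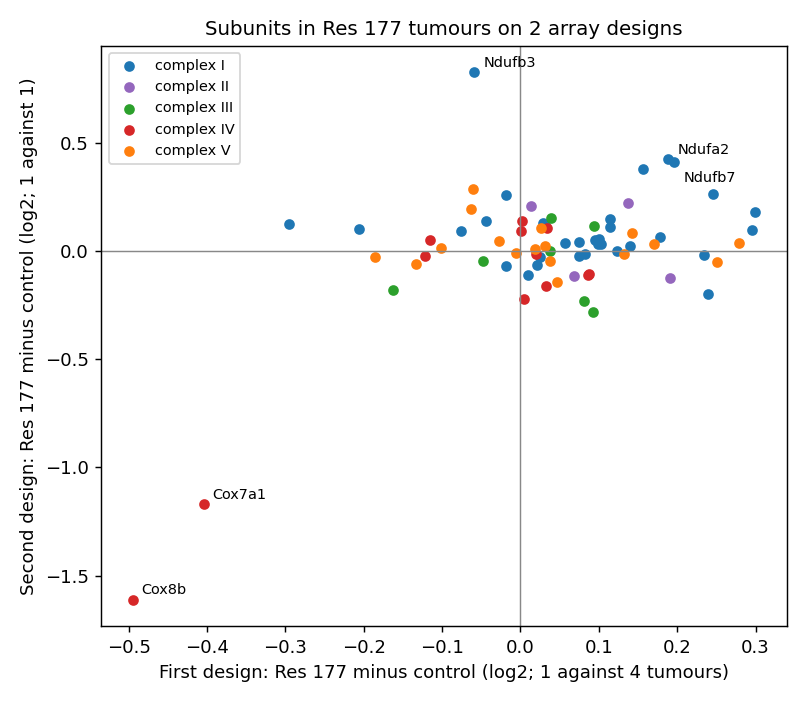
Difference of Res 177 minus control for each of the 73 subunits, on the first design (x axis, log2, 1 tumour against 4) and on the second design (y axis, log2, 1 tumour against 1), coloured by complex. Cox8b (-0.49 and -1.61) and Cox7a1 (-0.40 and -1.17) stand apart at the lower left, and Ndufb3 is the highest point, at 0.82 on the second design.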

How the data were processed

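Total RNA of 14 B16-F10 tumours was hybridised to Affymetrix arrays of 2 designs. The deposited values are log2 expression levels, which the authors obtained with RMA (oligo), per the submitters' processing notes; versions, build and probe annotation: not given in the sources used here. That the scale is log2 follows from the value range. RMA corrects background, quantile-normalizes and summarises probes, so a change common to all genes of an array is removed. The designs were normalized separately and never pooled. Arrays give no read depth; the number of tumours limits precision.

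Gene names come from the platform annotation (older symbols, such as the Atp5 names). Of 41345 probe sets of the first design, 23521 had 1 symbol, 1814 several and 16010 none; only those with 1 entered. Per gene the probe set of highest mean was kept (22180 genes) and the lowest 25% (5545) were left out. For 9 members a second probe set existed, and 2 of these (Atp5e, Cox7b) had the opposite sign. lmFit and eBayes of limma 3.58.1 (R 4.3.3) were fitted to 16635 genes over 3 groups, with a separate resistant against sensitive fit, Benjamini-Hochberg adjustment and a threshold of 0.05; the code was tested on simulated data. Groups follow the subline label; replicate numbers follow deposit order.

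Members, lists and alternatives were chosen with earlier results of these data known. Named members are the 4 largest changes of each complex, the tissue isoforms, and for Res 177 the 3 largest changes each way on each design. Alternatives covered the filter, probe set choice, normalization, eBayes prior, array weights, threshold, single tumours left out, and marker covariates; the adipocyte covariate and the centred second-design counts were added after seeing the data. Besides macrophage, adipocyte, muscle and melanocyte markers, the lists had median Res 499 changes of 0.66 (leukocyte covariate), 0.22 (T cell), 0.15 (endothelial), 0.37 (fibroblast), 0.034 (keratinocyte, with a mean of 2.00 in the Res 177 tumour) and -0.73 (erythroid, 1 gene). Macrophage markers had 0.85, adipocyte markers 0.17, skeletal muscle markers -0.11, melanocyte markers 0.10 and a list of 8 subunits (those outside the naming rule, and Ndufa4l2) 0.15. Sequences are from the RefSeq promoter table (GRCm38.p6).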

Additional observations from a re-analysis of the deposited data

Results flagged for a closer look

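Of 176 group values examined, 9 had 1 tumour far from the others of its group by Dixon's criterion; chance gives about 1 in 20. Among control tumours these were Atp5c1 in replicate 2 (7.16, highest), Sdha in replicate 5 (11.2, lowest) and Sdhb in replicate 4 (11.0, lowest). Among Res 499 tumours, replicate 5 was highest for Ndufa7 (9.47), for Uqcrq (8.60) and for the mean of complex III relative to control (0.37). Replicate 2 was lowest for Ndufa10 (11.3) and for Cox4i1 (10.4), and replicate 6 was lowest for Ndufb11 (5.97).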

How the results depend on the processing

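The count of members past the threshold stayed at 0 in Res 499 against control under 25 of 26 alternatives, an adjusted p of 0.1 among them, and was 1 (Ndufc1) with array weights. It stayed at 0 under all 24 alternatives run for each of the other 3 contrasts. The median change of the members in Res 499 kept its sign under all 25 alternatives, from 0.046 to 0.11, with 55 to 66 members positive; leaving out 1 tumour at a time gave these same limits. Leaving out Res 499 replicate 5 or control replicate 5 lowered the resistant against sensitive median from 0.082 to 0.045 and 0.044. The first-design Res 177 median was 0.0052 with each array centred, 0.023 without control replicate 5 and 0.061 without control replicate 2. The second-design median was -0.053 with each array centred, where that of all genes was -0.048.

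Changes in Res 499 that turned sign, none of them past the threshold, were those of Sdha (0.028 with the muscle and 0.0026 with the adipocyte covariate; -0.11 to 0.015 with 1 tumour left out), Cox6a2 (0.069 with array weights, 0.0027 with the leukocyte covariate; -0.16 to 0.072 with 1 tumour left out) and Cox7a1 (0.052 with the leukocyte covariate; -0.46 to 0.061 with 1 tumour left out). The cause was not tested. No paired analysis was possible because the replicate numbers only follow deposit order. With 4 control tumours, changes the size of the members' median lie below the standard error of a single gene.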
